A study of Mus musculus with 8 samples.

Results

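Chromatin at 6 genes that control the G1 phase of the cell cycle was examined in a mouse melanocyte line: Ccnd1, Cdk4, Cdk6, Cdkn1a, Cdkn2a and Cdkn2b. Members were all peaks of 6 deposited lists that lay within 50 kb of each gene's span on the mm9 build, with the window of Ccnd1 carried on to chr7:152370000 to take in an acetylated stretch beside it. This gave 782 of 311378 peaks (0.251%). In replicates 1 and 2 respectively, the SOX10 lists contributed 8 and 9 of them, the H3K27ac lists 365 and 323, and the H3K27me3 lists 43 and 34. Because the far end of the Ccnd1 window was placed by its acetylation, the amount of H3K27ac in that window is given as a description and supports nothing. The windows of Cdkn2a and Cdkn2b overlap, and totals count each peak once.

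The lists came from chromatin immunoprecipitation sequencing (ChIP-seq), which recovers DNA fragments held by an antibody's target and reports where its tags outnumber those of input DNA sequenced without antibody. The study, on how SOX10 acts on classes of genes in melanocytes, used 1 line, melan-Ink4a-Arf-1, immortal pigment cells grown out of embryonic skin. Every library carried the same genotype, Cdkn2a tm1RDp/tm1RDp, and the same medium with 200 nM of the phorbol ester 12-O-tetradecanoylphorbol 13-acetate and 200 pM cholera toxin. SOX10, H3K27ac and H3K27me3 each had 2 libraries from independent experiments, and 2 input libraries served as background for the authors' calls. The SOX10 libraries shared 1 input and the histone mark libraries the other. Values of input background for replicates 1 and 2 are therefore not independent. All samples are of 1 genotype and 1 treatment, so the 3 antibodies were compared with each other and the 6 genes with the whole lists, and no test between groups of samples was made. The tm1RDp allele is a targeted mutation that disables both products of Cdkn2a by removing exons they share. Both growth additives and the mutation are common to all samples, and their part in any value was not tested.

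Cells pass through G1 when D-type cyclins, of which Ccnd1 encodes cyclin D1, bind and activate the kinases Cdk4 and Cdk6, which phosphorylate the retinoblastoma protein and release E2F transcription factors. Inhibitors oppose this step. The INK4 proteins, p16Ink4a from Cdkn2a and p15Ink4b from Cdkn2b, bind Cdk4 and Cdk6, and p21, encoded by Cdkn1a, inhibits cyclin-dependent kinases downstream of p53. Cdkn2a also encodes p19Arf from a separate first exon, and p19Arf stabilises p53 by binding Mdm2. In melanocytes this locus is known for its role in senescence and as a melanoma suppressor. SOX10 is a neural crest transcription factor needed for melanocyte development and survival. H3K27ac, the acetyl mark on lysine 27 of histone H3, is found at promoters and enhancers in use, and H3K27me3, trimethylation of that lysine, is deposited by Polycomb repressive complex 2, which represses the INK4 locus in many proliferating cells.

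The promoters of 5 of the 6 genes are in the RefSeq-derived table used here (GRCm38.p6, 250 bases before to 50 after each start, with 7 starts in all), and that of Ccnd1 is named only. All 7 are shown because acetylated regions lay at or near the 5′ ends of these genes. Since the peaks are on mm9, sequences and peaks were matched by gene and not by position. Capitals mark the palindromic E-box core CACGTG in Cdk4 and Cdk6, a pair of CATG cores with 6 bases between them, the pattern of a p53 element, in Cdkn1a, and the GC box GGGCGG in Cdkn2a and Cdkn2b, as read on the printed strand. The second Cdkn1a start lacks the CATG pair and has no capitals. The 5 genes lie on the plus strand (Cdk4, Cdk6, Cdkn1a) or the minus strand (Cdkn2a, Cdkn2b), and each sequence runs 5′ to 3′ along its gene. Of the 2 Cdkn2a starts, the first lies nearer to Cdkn2b.
Cdk4: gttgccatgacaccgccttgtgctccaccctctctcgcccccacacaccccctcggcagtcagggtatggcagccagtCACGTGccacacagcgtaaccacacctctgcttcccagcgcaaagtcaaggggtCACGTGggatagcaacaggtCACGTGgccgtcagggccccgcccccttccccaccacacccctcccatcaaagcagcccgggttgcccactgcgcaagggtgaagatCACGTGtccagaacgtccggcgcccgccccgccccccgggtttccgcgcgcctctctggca
Cdk6: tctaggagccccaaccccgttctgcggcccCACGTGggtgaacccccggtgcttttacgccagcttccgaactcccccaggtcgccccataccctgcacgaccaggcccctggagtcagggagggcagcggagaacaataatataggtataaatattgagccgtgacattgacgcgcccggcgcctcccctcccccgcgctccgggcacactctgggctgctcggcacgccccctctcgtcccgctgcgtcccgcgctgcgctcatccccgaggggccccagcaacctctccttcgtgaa
Cdkn1a, start 1: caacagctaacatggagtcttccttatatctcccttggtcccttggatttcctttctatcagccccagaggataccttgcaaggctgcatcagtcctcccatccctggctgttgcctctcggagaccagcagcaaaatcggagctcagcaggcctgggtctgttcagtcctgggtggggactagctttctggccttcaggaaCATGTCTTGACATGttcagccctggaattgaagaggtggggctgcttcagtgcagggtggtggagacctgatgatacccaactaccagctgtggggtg
Cdkn1a, start 2: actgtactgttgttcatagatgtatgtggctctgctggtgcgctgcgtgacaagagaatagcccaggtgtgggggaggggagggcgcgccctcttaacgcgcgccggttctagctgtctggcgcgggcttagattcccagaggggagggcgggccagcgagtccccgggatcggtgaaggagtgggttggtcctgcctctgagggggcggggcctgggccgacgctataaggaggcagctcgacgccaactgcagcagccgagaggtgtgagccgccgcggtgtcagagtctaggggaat
Cdkn2a, start 1: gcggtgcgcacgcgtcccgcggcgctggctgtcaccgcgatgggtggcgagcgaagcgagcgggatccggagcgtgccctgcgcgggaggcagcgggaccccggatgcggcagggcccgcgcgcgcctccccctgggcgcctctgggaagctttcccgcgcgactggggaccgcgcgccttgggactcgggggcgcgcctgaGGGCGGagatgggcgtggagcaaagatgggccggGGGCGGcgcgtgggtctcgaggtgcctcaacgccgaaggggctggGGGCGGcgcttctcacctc
Cdkn2a, start 2: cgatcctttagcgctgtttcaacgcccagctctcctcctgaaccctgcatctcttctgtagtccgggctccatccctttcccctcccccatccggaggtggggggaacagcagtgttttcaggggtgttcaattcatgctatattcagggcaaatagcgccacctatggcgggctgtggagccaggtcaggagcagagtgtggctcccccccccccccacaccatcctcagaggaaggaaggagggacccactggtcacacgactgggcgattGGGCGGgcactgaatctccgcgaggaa
Cdkn2b: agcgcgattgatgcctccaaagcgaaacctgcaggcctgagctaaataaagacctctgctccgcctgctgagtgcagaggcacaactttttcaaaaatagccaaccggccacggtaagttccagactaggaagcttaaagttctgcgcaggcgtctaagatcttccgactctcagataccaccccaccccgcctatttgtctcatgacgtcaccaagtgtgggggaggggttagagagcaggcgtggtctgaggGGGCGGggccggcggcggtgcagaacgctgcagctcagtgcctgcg

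With both strands searched, CACGTG occurred at 4 places in the Cdk4 promoter and at 1 place in the Cdk6 promoter. Of 32851 promoters of this length 7.15% held at least 1 such core, and 8 (0.0244%) held at least 4. The first Cdkn1a start held the CATG pair once, which 0.712% of promoters do. GGGCGG on either strand occurred 3 times in Cdk4 and 3 times at the first Cdkn2a start, a number reached by 10.7% of promoters. The second Cdkn1a start held 2, as 19.5% of promoters do or exceed. The second Cdkn2a start and Cdkn2b held 1 each, and 35.7% of promoters held at least 1. The first Cdkn2a start was the richest in G and C of the 7, at 77% with 45 CpG dinucleotides, against 60.3% and 12 at the second start and a median of 52.7% over all promoters. None of the 7 windows held ACAAAG or ACAATG, the usual cores of SOX motifs, of which 28.6% of all promoters held 1 or both. These are matches of letters and not sites.

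Kept tags numbered 6440395 and 8985699 in the SOX10 libraries, 45583056 and 44416913 in those of H3K27ac and 67060647 and 71987481 in those of H3K27me3. A median SOX10 peak held 21 and 29 tags. No annotation on mm9 was used, so the cell type was not checked against melanocyte markers and the other genes of the pathway were not analysed here. Peaks of both replicates that shared at least 1 bp were merged, and those holding peaks from both replicates are called regions below (sites for SOX10). Fold is the authors' enrichment at a peak's summit over background, and a region takes the highest fold of its peaks in each replicate, given with the mean ± SD (n = 2).

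Agreement between replicates at the 6 genes differed by antibody. For H3K27ac, 266 of 365 (72.9%) and 239 of 323 (74.0%) peaks shared sequence with a peak of the other replicate, against 64% and 59.6% over the whole lists. Of these 365 and 323 peaks, 269 and 221 lay in the Ccnd1 window, placed by its acetylation, so the H3K27ac shares mostly describe that window. For SOX10 it was 4 of 8 (50%) and 4 of 9 (44.4%), against 65.4% and 43.6%, and for H3K27me3 16 of 43 (37.2%) and 20 of 34 (58.8%), against 46.8% and 52.6%. The 6 genes held 4 of 4159 SOX10 sites, 194 of 36655 H3K27ac regions and 15 of 30517 H3K27me3 regions. The Ccnd1 window held 134 of the 194 H3K27ac regions, so the H3K27ac medians below also mostly describe it. Their folds were near those of the whole lists: the median was 11.8 against 11.2 for SOX10, 8.74 against 8.62 for H3K27ac and 5.03 against 5.25 for H3K27me3. Median widths were also near them, at 1261 against 1150 bp, 582 against 547 bp and 1573 against 1373 bp.

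The genes ranged widely in acetylation. H3K27ac peaks covered 37.2% and 34.4% of the Ccnd1 window in replicates 1 and 2, 14.7% and 18.7% of the Cdkn1a window, 9.72% and 8.36% of the Cdkn2a window, 11.1% and 9.54% of the Cdkn2b window, 1.83% and 3.90% of the Cdk4 window and 1.60% and 1.69% of the Cdk6 window. The lists covered 1.01% and 1.1% of all tiled sequence. H3K27me3 peaks covered 11.4% and 8.43% at Cdk4, 9.59% and 4.57% at Cdkn1a, 6.65% and 6.39% at Ccnd1, 0.664% and 1.61% at Cdk6 and nothing at Cdkn2a and Cdkn2b, against 2.96% and 2.61% of all tiled sequence. In the order of acetylation, the replicates of Ccnd1, of Cdkn1a and of the Cdkn2 genes did not overlap with those of the next gene. Those of Cdkn2a and Cdkn2b overlapped because they share their peaks. The Ccnd1 window was carried on for its acetylation, so its place in this order describes that choice. Within 50 kb of its span, regions of both replicates covered 25.9%, against 16.8% of the Cdkn1a window, and coverage there was not taken per replicate. Windows ran from 104 kb at Cdk4 to 305 kb at Ccnd1, and shares depend on that length. Both values of Cdk4 lay above those of Cdk6, the lower one by less than the gap between the replicates of Cdk4. No H3K27me3 peak of either replicate touched the span of any of the 6 genes. How often spans of such lengths lack one over the genome was not counted, so this is a description only.

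**Figure D1:**
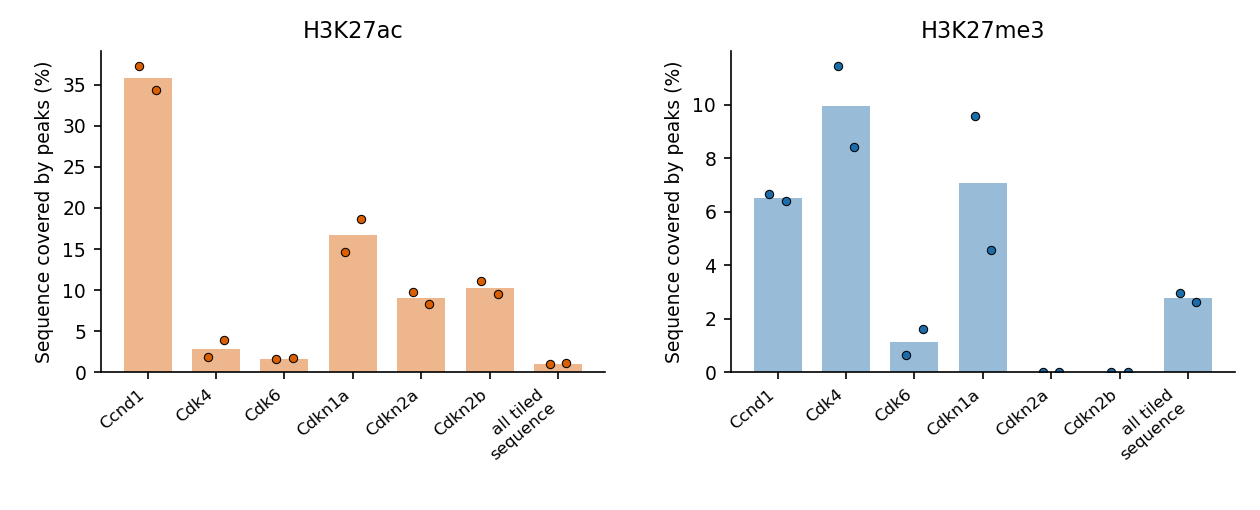
Share of each gene's window covered by peaks, in percent, for H3K27ac (left) and H3K27me3 (right). Points are replicates 1 and 2, bars their mean, and the last column is all tiled sequence. H3K27ac falls from 37.2% and 34.4% at Ccnd1 to 1.60% and 1.69% at Cdk6, and H3K27me3 is at 0 in the Cdkn2a and Cdkn2b windows. The Ccnd1 window was carried on for its acetylation, so its place describes that choice.

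Beside Ccnd1, which encodes the regulatory subunit cyclin D1 (chr7:152115000-152126000), lay the tile with the most H3K27ac regions among 26376 tiles of 100 kb. This tile is part of the stretch for which the window was carried on, so its ranks describe that choice. The tile from 152200000 to 152299999 held 64 H3K27ac regions, more than any other tile, where the mean was 1.39 and the 99th percentile 21. Its 118 and 107 peaks also ranked 1 in each replicate alone. By sequence covered by these regions (53.8%) it ranked 2. Counts depend on how calls are split: with peaks of a list under 1 kb apart joined first, the 134 H3K27ac regions of the whole Ccnd1 window became 25. Coverage can change too, since gaps between split calls are left out. Ranks by count and by coverage were not recomputed after joining. The tile with the gene held 42 regions (rank 21) and the tile above the densest one held 47 (rank 12), whereas the tile below the gene held 1. Over the genome 25.5% of tiles held any H3K27ac region.

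In this window most H3K27ac regions of Ccnd1 lay above the span, the side to which the window was carried on because of its acetylation. The sides differ in length, so their shares only describe the window as placed. The 50 kb below the span, past the 3′ end of the gene, which is known to be transcribed from the minus strand, held 2 H3K27ac regions covering 4.38% of the sequence. The 244 kb above the span held 131, covering 43.3%. Within 50 kb of the span, the distance used for the other genes, there were 31 regions covering 25.9%, and 103 lay farther out. The regions fell into long stretches with gaps under 5 kb. One began in the gene and ran from 152122548 to 152168609 (46.1 kb, 27 regions, rank 52 of 13011 by length). The next long one ran from 152200358 to 152265567 (65.2 kb, 44 regions, rank 13), and a further one from 152272663 to 152319552 (46.9 kb, 30 regions, rank 49). In the RefSeq order of protein-coding genes the neighbour on this upper side is Tpcn2, an endolysosomal ion channel gene, but where it starts was not placed on these coordinates.

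The strongest H3K27ac region in the Ccnd1 window was at the gene itself. It spanned chr7:152122548-152125846 (3299 bp) at the 5′ end of the span, with folds of 14.12 and 15.38 (14.8 ± 0.891) from 436 and 434 tags, and ranked 355 of 36655. Folds of the 269 and 221 single peaks had medians of 8.0 and 8.34 and reached from 4.43 to 14.47 and from 3.84 to 15.38 across the window. The widest region, chr7:152310635-152314188 (3554 bp), lay 185 kb upstream of the 5′ end, with folds of 10.83 and 11.62 (11.2 ± 0.559). The input background under the acetylated peaks of this window, recovered from each peak's tags and p, had medians of 1.28 and 1.20 times the genome-wide level, against 1.24 and 1.17 over the whole lists.

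**Figure D2:**
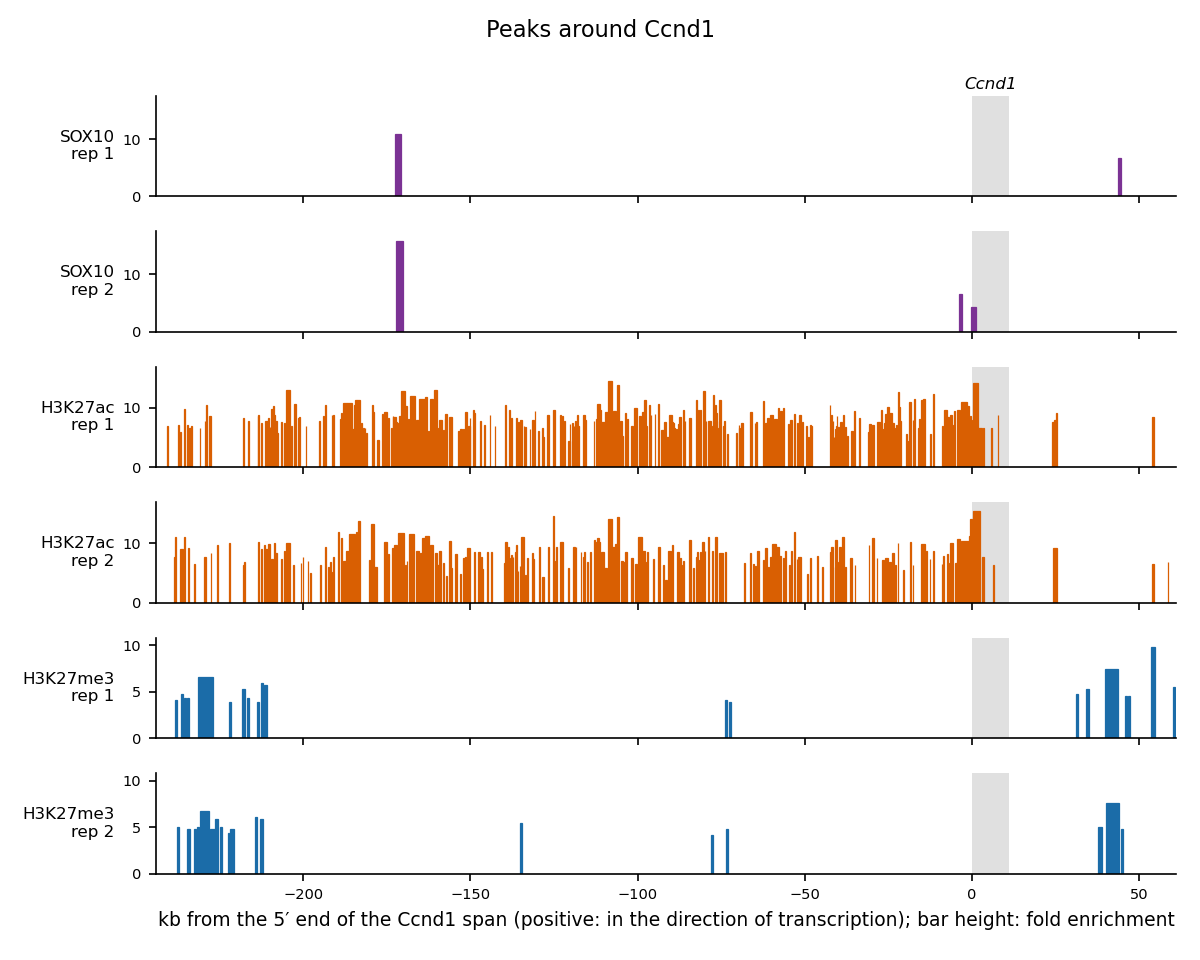
Peaks of the 6 lists around Ccnd1, with distance from the 5′ end of the span in kb along the horizontal axis (positive in the direction of transcription) and fold enrichment as bar height. The H3K27ac bars fill the upstream side, to which the window was carried on for its acetylation, in both replicates. Past the 3′ end lie 2 H3K27ac regions. The SOX10 bars found in both replicates stand 172 kb upstream, and the grey band is the gene's span.

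One SOX10 site of both replicates fell in the Ccnd1 window, within the densest tile and far from the gene. It spanned chr7:152296237-152298589 (2353 bp), with its summit 172 kb upstream of the 5′ end. Its folds were 10.88 and 15.91 (13.4 ± 3.56), from 68 and 121 tags. It ranked 1408 of 4159 sites, and 58.7% and 88.0% of single peaks in the lists had a lower fold. It overlapped 2 H3K27ac regions, chr7:152295525-152297756 with a mean fold of 12.3 ± 0.735 and chr7:152297873-152299719 with 9.19 ± 0.863. The input background under it was 4.12 and 4.48 times the genome-wide level, against medians of 1.43 and 1.55 over the SOX10 lists, and the part of that in the call was not tested. SOX10 sites occurred in 12.3% of all tiles.

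SOX10 peaks nearer to Ccnd1 were found in 1 replicate each. In replicate 2 a peak at chr7:152124658-152126210 covered the 5′ end of the gene with a fold of 4.38, and another at chr7:152128963-152129914 had a fold of 6.54. Both overlapped H3K27ac regions, and neither had a partner in replicate 1. Replicate 1 alone had a peak of fold 6.66 at chr7:152081526-152082413, past the 3′ end. Input background under these 3 peaks was 3.66, 4.75 and 2.38 times the genome-wide level.

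Of the 6 H3K27me3 regions at Ccnd1, 1 lay below the gene and 5 above it. The strongest, chr7:152082120-152086161, was 28.8 kb below the span, with folds of 7.43 and 7.65 (7.54 ± 0.156). The widest, chr7:152352411-152357856 (5446 bp, 6.56 and 6.78, 6.67 ± 0.156), was 229 kb upstream. One region, chr7:152198884-152199904, lay in a gap between acetylated stretches, with folds of 4.15 and 4.81 (4.48 ± 0.467). Each replicate had an H3K27ac peak inside it, with folds of 5.56 in replicate 1 and 8.49 in replicate 2. These peaks did not overlap each other and so made no H3K27ac region. Of the 134 H3K27ac regions in the window 4 overlapped an H3K27me3 region, and these 4 were the only ones among the 194 regions of the 6 genes. They lay between 152338183 and 152360633, near the window's upper end, with mean folds of 8.23, 8.50, 7.79 and 8.17. Over the 6 genes this was 2.06% (95% Wilson interval 0.805% to 5.18%), near the 1.94% of all H3K27ac regions. Of all tiles 26% held an H3K27me3 region.

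Cdk4, the kinase partner of cyclin D1 (chr10:126500000-126504000), had 1 compact acetylated region at its start and H3K27me3 downstream. The region at chr10:126500648-126501589 (942 bp) had folds of 14.57 and 10.63 (12.6 ± 2.79) from 124 and 139 tags, and ranked 1568 of 36655. Another 3 H3K27ac regions lay in the window, at 126477495 and 126479239 below the gene and at 126507513 above it, with mean folds of 8.25, 9.83 and 10.4. The lower replicate of the region at the start, 10.63, was close to the folds of 10.49 and 10.23 at the last of these. None of the 4 overlapped H3K27me3.

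The start of Cdk4 also carried a SOX10 peak, in replicate 1 only. It spanned chr10:126500251-126501316 with a fold of 6.16 and overlapped the acetylated region at the start. A further one at chr10:126467477-126468259 had a fold of 6.32. Replicate 2, the deeper library, had no SOX10 peak in the window, and the nearest site of both replicates was 121 kb from the gene. Input background under these peaks was 4.28 and 3.96 times the genome-wide level, and its part in the calls was not tested. The promoter printed above for Cdk4 held 4 CACGTG cores and no SOX core.

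The widest H3K27me3 region of the 6 genes lay downstream of Cdk4, toward its neighbour Tspan31 in the RefSeq order of protein-coding genes. It spanned chr10:126516703-126523298 (6596 bp), with folds of 10.71 and 7.21 (8.96 ± 2.47), and ranked 418 of 30517. With regions of mean fold 6.23 at 126512858 and 4.70 at 126524517 it formed a row that began 8.86 kb past the gene. Replicate 1 had 8 H3K27me3 peaks in the window and replicate 2 had 5.

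Cdk6, the second kinase of cyclin D1, has the longest of the 6 spans (chr5:3341000-3535000) and carried the strongest SOX10 site of the set, at a place where H3K27ac was not called in both replicates. The site, chr5:3399692-3400809 (1118 bp), was inside the span, 59.3 kb from its 5′ end. Folds were 23.73 and 21.06 (22.4 ± 1.89), from 25 and 38 tags, and 96.7% and 95.3% of peaks in the lists had a lower fold. It ranked 264 of 4159 sites. The input background recovered from its 2 calls, which share 1 input, was at the genome-wide level (1.00 and 1.00). Whether the input there was lower than that was not examined. The nearest H3K27ac region was 18463 bp from its summit and the nearest H3K27me3 region 61771 bp. An H3K27ac peak of replicate 1 only, chr5:3400571-3400776 with a fold of 11.36, overlapped the SOX10 peak of replicate 2. The fold at this site rests on few tags, though on more than the list medians of 21 and 29. The Ccnd1 site, at a fold of 10.88 and 15.91, had 68 and 121, over input at 4.12 and 4.48 times the genome-wide level.

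Acetylation at Cdk6 was sparse and spread along the gene. Of the 9 H3K27ac regions 8 touched the span. A group of 4 lay near the 5′ end, between 3343180 and 3345127, with mean folds of 7.10, 4.76, 9.73 and 8.99. Just upstream of these, replicate 2 had 5 more peaks between 3340544 and 3342988, the strongest at chr5:3342110-3342547 with a fold of 13.6, and replicate 1 had none there. The replicates thus differed over the first 2 kb of the span. The highest mean fold of the window, 9.95 ± 0.467, was outside the span at chr5:3544157-3544699, and the widest region, chr5:3381182-3381789, was 608 bp with folds of 6.13 and 6.2. The only H3K27me3 regions lay below the 5′ end, at chr5:3330514-3332467 (5.79 ± 0.467) and chr5:3336909-3338481 (4.92 ± 0.467), the second ending 2.52 kb before the span.

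Cdkn1a, the gene of the kinase inhibitor p21 (chr17:29227000-29238000), followed Ccnd1 in acetylation. Its window held 31 H3K27ac regions, 28 of which made up a stretch from 29199748 to 29232959 (33.2 kb, rank 108 of 13011), upstream of the gene and into its first part. With peaks under 1 kb apart joined first, the 31 became 5. The 5 regions in the span included chr17:29227055-29227685 at the 5′ end, with folds of 8.30 and 12.07 (10.2 ± 2.67). The highest mean fold was at a region of 154 bp, chr17:29219694-29219847, where 18.25 in replicate 1 stood against 9.80 in replicate 2 (14.0 ± 5.98). The widest region, chr17:29201505-29203398 (1894 bp), was steadier, at 12.10 and 11.11 (11.6 ± 0.70). The first RefSeq start of Cdkn1a is the one with the paired CATG motif printed above. The RefSeq order used here held protein-coding genes, with Trp53cor1, a noncoding RNA gene named for its link to p53, added by name. In that order Trp53cor1 is the neighbour below, and other noncoding genes were not looked up.

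No SOX10 site of both replicates lay in the Cdkn1a window, and the nearest was 388 kb away. Each replicate had 1 SOX10 peak, at different places. The peak of replicate 2, chr17:29230026-29233109, was in the gene, held 121 tags over 3084 bp with a fold of 5.18, and overlapped 2 H3K27ac regions. The peak of replicate 1 at chr17:29257609-29258162 had a fold of 5.76. Under them the input background was 5.03 and 4.12 times the genome-wide level, the first being the highest under any SOX10 peak of the 6 genes.

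All 4 H3K27me3 regions of Cdkn1a were on the opposite side from the H3K27ac regions found in both replicates, at least 29.4 kb above the span. The strongest, chr17:29274856-29276824, had folds of 10.71 and 5.25 (7.98 ± 3.86), and the others had mean folds of 4.59, 5.03 and 4.92. H3K27me3 calls used no local background, and the input under the strongest was not examined separately. Inside the strongest lay an H3K27ac peak of replicate 2 only, chr17:29275231-29275747, with a fold of 4.25. One H3K27me3 peak of replicate 1 only, chr17:29224195-29224995 with a fold of 5.90, lay inside the acetylated stretch, 2.01 kb below the span. Replicate 2 had no H3K27me3 peak within 28.4 kb of the gene.

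**Figure D3:**
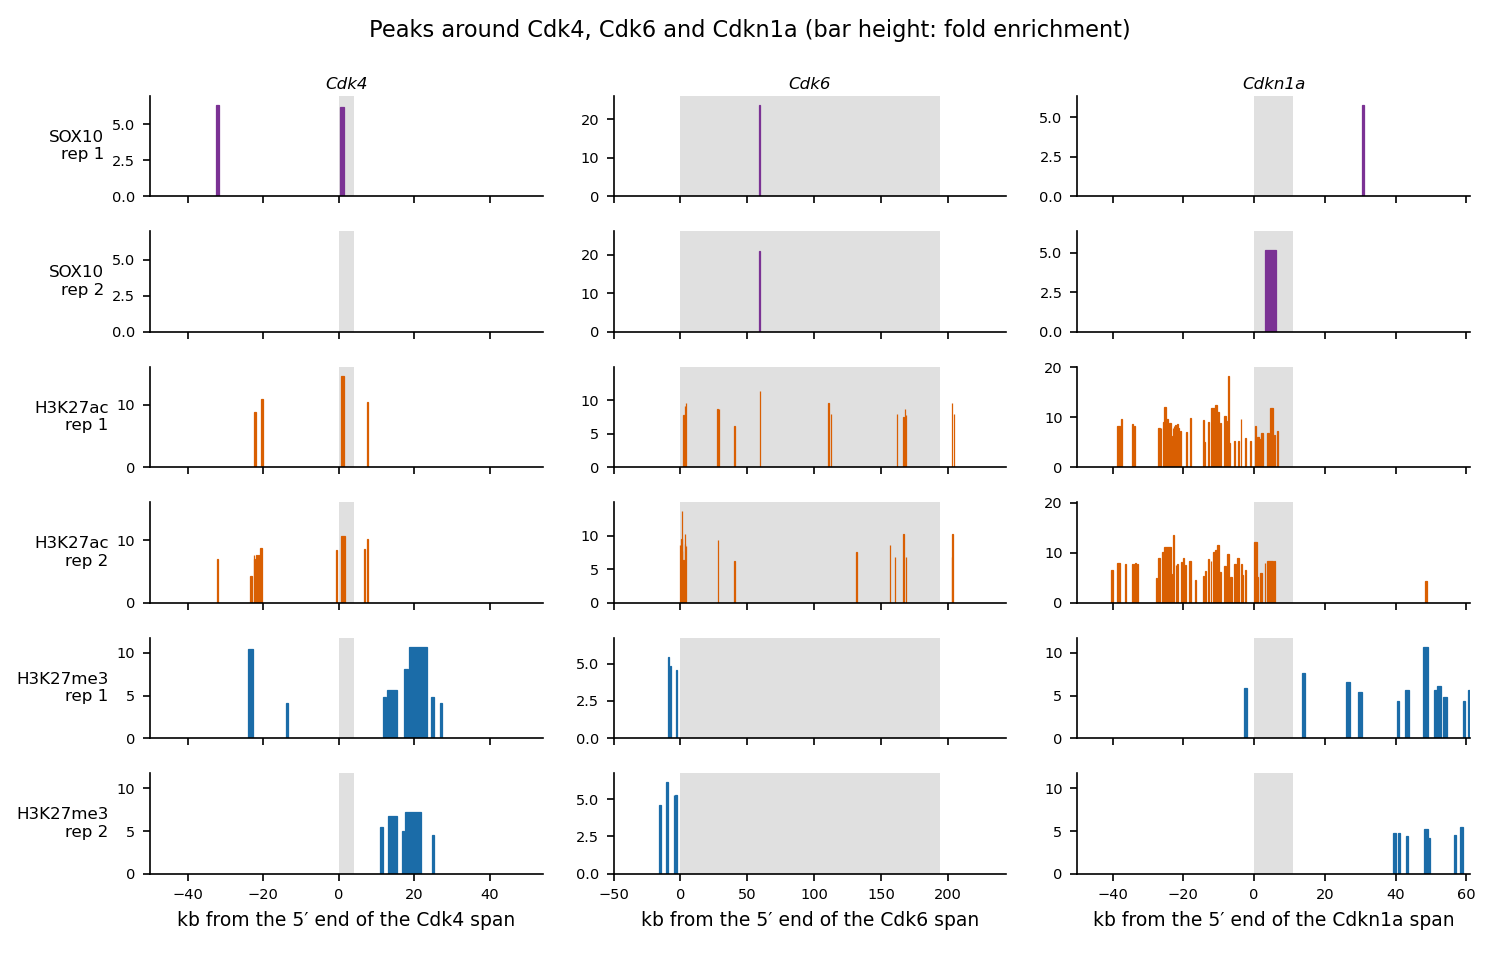
Peaks of the 6 lists around Cdk4, Cdk6 and Cdkn1a (columns), with distance from each span's 5′ end in kb along the horizontal axis and fold enrichment as bar height. Grey bands are the spans: Cdk4 has 1 acetylated region at its start, Cdk6 a SOX10 site at 23.73 and 21.06 with few H3K27ac peaks, and Cdkn1a a dense row of H3K27ac upstream with H3K27me3 regions downstream.

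Cdkn2a (chr4:88920000-88941000) and Cdkn2b (chr4:88952000-88958000), the INK4 genes, had H3K27ac regions along their length and no H3K27me3 peak. In neither replicate was an H3K27me3 peak called between 88870000 and 89008000. The nearest to the Cdkn2a span was 180 kb away in replicate 1 and 179 kb in replicate 2, and the nearest to the Cdkn2b span 205 and 211 kb. Of 19118 stretches of the same length tiled over the genome, 48.5% had no H3K27me3 peak in either list, and of the 5717 that held an H3K27ac region 13.3% had none. Both H3K27me3 lists were called against the genome-wide background alone. A peak list shows where a call was made, and a signal below the authors' threshold in this locus was not examined.

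Acetylation of Cdkn2a ran along the gene in a stretch from 88919484 to 88942136 (22.7 kb, 13 regions, rank 270 of 13011), with 10 regions in the span. The 16 H3K27ac regions of both INK4 genes together became 4 when peaks under 1 kb apart were joined first. The strongest H3K27ac region of the 6 genes was here, chr4:88927054-88928320 (1267 bp), with folds of 20.98 and 15.35 (18.2 ± 3.98) from 216 and 201 tags. It ranked 42 of 36655, and 99.97% and 99.4% of peaks in the lists had a lower fold. Its summit lay 13.2 kb inside the gene from the 5′ end. RefSeq gives Cdkn2a another start inside the gene, the second printed above, and whether the region covers it was not placed on these coordinates. At the 5′ end itself the region chr4:88940624-88941179 had folds of 6.72 and 8.11 (7.42 ± 0.983). Next to it was the widest region of the locus, chr4:88938744-88940481 (1738 bp), with 13.11 and 7.99 (10.6 ± 3.62). Between the regions of the 5′ end and the rest of the gene, 4601 bp from 88934143 to 88938743 held no peak in any list.

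The part of Cdkn2a that the tm1RDp allele removes could not be located from the lists, which hold no coverage outside peaks. The low end of the span, where the 3′ part of a minus-strand gene lies, had an H3K27ac peak of replicate 1 only at chr4:88920081-88920418 (fold 9.62), followed by 2450 bp from 88920419 to 88922868 with no peak of any antibody. H3K27ac regions followed from 88922869, the first 3 with mean folds of 9.51, 11.1 and 11.7. Whether the gap belongs to the deletion was not tested.

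SOX10 lay within the acetylated regions of Cdkn2a in both replicates, weakly. The site chr4:88927588-88928760 had folds of 5.38 and 6.33 (5.86 ± 0.672), from 23 and 35 tags, and ranked 4007 of 4159. It overlapped 2 H3K27ac regions, among them the strongest of the locus. Only 3.45% and 14.5% of SOX10 peaks in the lists had a lower fold, and the input background under it was 2.69 and 2.85 times the genome-wide level. Replicate 2 also had a pair of SOX10 peaks at the 5′ end of the gene, chr4:88939922-88940622 with a fold of 6.33 and chr4:88940716-88941748 with 7.03, over input background of 1.27 and 1.43. Both overlapped H3K27ac regions, and replicate 1 had no SOX10 peak there.

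Cdkn2b, which encodes p15Ink4b, had 3 H3K27ac regions in its span and a SOX10 site over them. The largest, chr4:88955559-88956936 (1378 bp), had folds of 10.49 and 10.13 (10.3 ± 0.255). The other two, chr4:88954555-88954996 and chr4:88957227-88957744, had mean folds of 9.05 and 7.70, each with an SD above 1. The SOX10 site chr4:88956090-88957438 (1349 bp) had its summit 1.32 kb inside the gene from the 5′ end, folds of 8.32 and 11.96 (10.1 ± 2.57), and 19 and 45 tags. It overlapped 2 of the 3 regions and ranked 2514 of 4159. The input background under it was 1.43 in the calls of both replicates, which share 1 input, against list medians of 1.43 and 1.55. Between the 2 INK4 genes 9083 bp from 88943302 to 88952384 held no peak, and above Cdkn2b none was called to the end of the window.

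**Figure D4:**
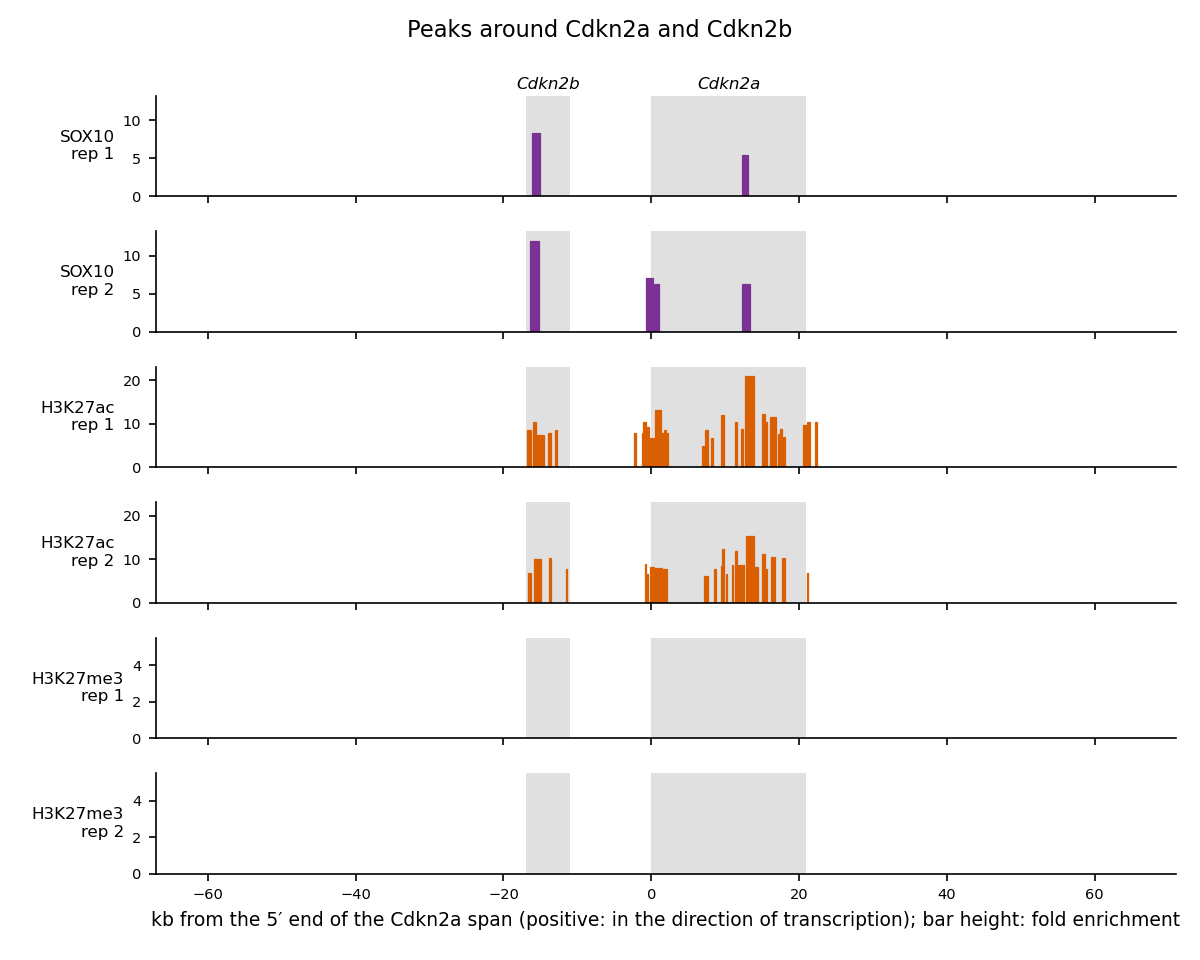
Peaks of the 6 lists around Cdkn2a and Cdkn2b, with distance from the 5′ end of the Cdkn2a span in kb along the horizontal axis (positive in the direction of transcription) and fold enrichment as bar height. H3K27ac bars fill the Cdkn2a span and reach 20.98 and 15.35, SOX10 bars of both replicates stand in each gene, and the H3K27me3 rows are empty.

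Set side by side, 3 of the 4 SOX10 sites at the 6 genes overlapped an H3K27ac region (75%, 95% Wilson interval 30.1% to 95.4%), against 53.2% of all SOX10 sites. The exception was the Cdk6 site. None of the 4 overlapped H3K27me3 (interval 0% to 49.0%), against 1.32% of all sites. With 4 sites neither share can be told from that of the whole list. In the other direction 6 of 194 H3K27ac regions overlapped a SOX10 site (3.09%, interval 1.43% to 6.58%), against 9.66% of all H3K27ac regions. By gene these were 2 of 134 at Ccnd1, 4 of 16 at Cdkn2a and Cdkn2b, and none at Cdk4 (of 4), Cdk6 (of 9) and Cdkn1a (of 31). The 134 Ccnd1 regions lie side by side in a window placed by its acetylation, so the pooled share mostly describes that window.

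In order of mean fold, the SOX10 sites ran from Cdk6 (22.4 ± 1.89) over Ccnd1 (13.4 ± 3.56) and Cdkn2b (10.1 ± 2.57) to Cdkn2a (5.86 ± 0.672). The replicates of Ccnd1 and Cdkn2b overlapped, and those of other neighbours in this order did not. Input background separated them differently, though fold is itself set against background, so the 2 measures are not independent. It was at the genome-wide level for Cdk6, no higher than the list medians for Cdkn2b, above them for Cdkn2a and highest for Ccnd1. Peaks with and without a partner both spanned a wide range of it. The 9 SOX10 peaks found in 1 replicate only lay over input at 1.27 to 5.03 times the genome-wide level, and the 8 with a partner at 1.00 to 4.48. Of the 8 and 9 SOX10 peaks, 4 (50%) and 6 (66.7%) had an authors' FDR above 1%, against 31.1% and 79.5% of the whole lists.

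**Figure D5:**
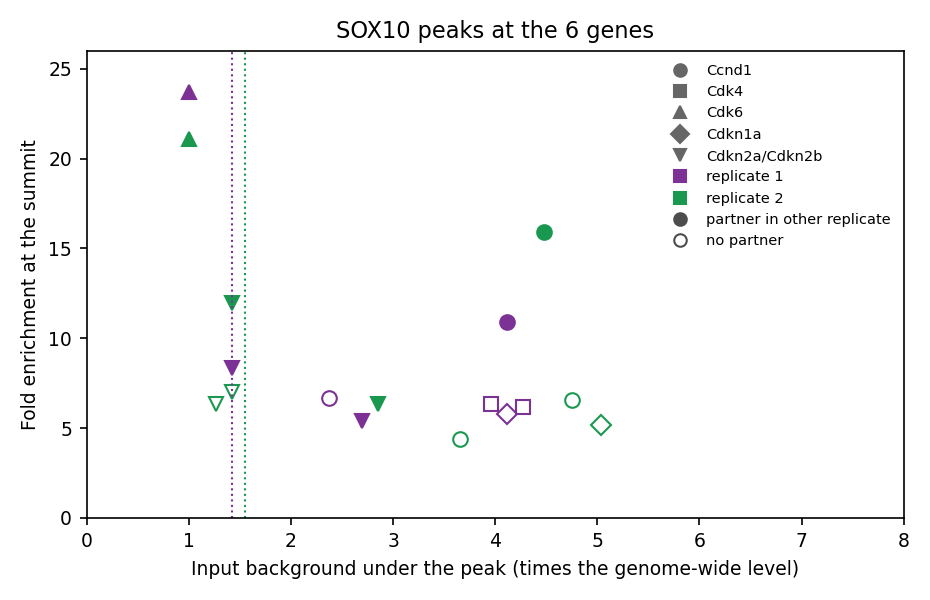
The 17 SOX10 peaks of the 6 genes, with input background under the peak relative to the genome-wide level on the horizontal axis and fold enrichment on the vertical axis. Shape gives the gene, colour the replicate, and filled symbols have a partner in the other replicate. Dotted lines are the list medians of 1.43 and 1.55. The Cdk6 peaks stand highest at the lowest background, but fold is itself set against background, so the axes are not independent.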

How the data were processed

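The members and lists were chosen with earlier results of these data known. Per the file headers, the authors ran MACS 1.4.2 on every library separately, with a p-value limit of 1e-05 and no more than 1 tag per position. The submitters' processing notes name the build mm9, and no aligner is named (not given in the sources used here). SOX10 and H3K27ac calls used a local background from 1000 and 10000 bp of input, and H3K27me3 calls did not, per the file headers. The tag shift model gave 50 and 51 bp for H3K27ac, about the tag length of 51 bp, per the file headers, so H3K27ac peaks can be narrow and split.

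The deposited tag count of each peak is a whole number. The deposited score is −log10 of the p-value multiplied by 10, so the authors' threshold is 50. Fold enrichment, a ratio the authors deposited, sets summit tags against background, and the deposited FDR is a percent. These values were used to describe and rank peaks within a list. Of SOX10 tags 55% and 38% were redundant, and the input for SOX10 kept 12059585 tags and that for the histone marks 42782172.

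Python 3.11.15 with numpy 2.4.6 and scipy 1.17.1 was used. Peaks were assigned to a gene when they shared at least 1 bp with its window, replicates were merged at 1 bp, and stretches joined H3K27ac regions less than 5 kb apart. Input background is the Poisson mean at which a peak's tags give its p, relative to the tags of the smaller library over the genome size. In the H3K27me3 lists, called on the genome-wide level, it lay within 1% of that level at 96.7% and 95.0% of peaks. Overlap and background steps were tested on simulated data. Wilson intervals are at 95% and, like all depth-based limits, cover counting error only. The 6 genes were named by rule, with each window's strongest and widest region, the regions nearest the span ends and every SOX10 site; a few others were picked after their values were seen. No test across libraries was made.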

Additional observations from a re-analysis of the deposited data

How the results depend on the processing

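No paired analysis was possible because the results are peak counts with no contrast between groups of samples. The 4 SOX10 sites became 2 when only peaks with a p score of at least 100 were kept, the sites in Cdkn2a and Cdkn2b being lost. They became 5 with the Ccnd1 window ended 50 kb later. With 1 replicate left out, all peaks of the other gave 8 to 9. The 194 H3K27ac regions became 100 at the stricter p score and 42 when peaks of a list under 1 kb apart were joined first, with fewer regions at each of the 6 genes, since neighbours then count as 1; leaving out 1 replicate gave 323 to 365. The 15 H3K27me3 regions became 5 at the stricter p score and 30 with windows of 100 kb, and leaving out 1 replicate gave 34 to 43. The share of SOX10 sites on H3K27ac, 75%, ranged from 50% to 88.9% over the alternatives, within its counting interval. Of 18 counts by gene and mark, 17 stayed within 1.5 times under a 50% overlap rule and under windows of 25 kb, 16 under windows of 100 kb, 13 after joining and 7 at the stricter p score, where the other 11 were lower. Counts without a replicate hold unpaired peaks and are higher by construction. SOX10 peaks had medians of 21 and 29 tags, and the effect of depth on the number of sites was not tested.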

Other observations

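The next SOX10 site of both replicates beyond the Ccnd1 window, looked up after the values were seen, was chr7:152391612-152392942. It lay 266 kb upstream of the 5′ end of Ccnd1, with folds of 19.42 and 22.24 (20.8 ± 1.99, SD, n = 2) from 127 and 237 tags, and ranked 342 of 4159 sites. It overlapped 1 H3K27ac region. The input background under it was 6.29 and 6.23 times the genome-wide level, above that under each of the 17 SOX10 peaks within the windows, and its part in the call was not tested. The first H3K27ac region beyond the window, chr7:152384623-152385910, had folds of 17.48 and 12.86 (15.2 ± 3.27), above the mean fold of each H3K27ac region inside it, where the last one, chr7:152361902-152362928, had 7.51 ± 2.14.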
